A study of Mus musculus with 2 samples.

Results

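Respiratory chain genes were compared between parathyroid cells and the other cells of mouse parathyroid glands in single-cell RNA-seq. The members were the genes named Ndufa, Ndufb, Ndufc, Ndufs or Ndufv (without the Ndufaf assembly factors), Uqcr, Cox4 to Cox8 and Atp5, with Sdha to Sdhd and the protein genes of the mitochondrial genome. Of 32287 entries in the gene list, 99 were members: 86 nuclear (39 of complex I, 4 of complex II, 8 of complex III, 18 of complex IV and 17 of ATP synthase) and 13 mitochondrial (7, 0, 1, 3 and 2). Ndufa4 and Ndufa4l2 were counted under complex I by their names, although Ndufa4 is now assigned to complex IV.

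The glands came from adult Gcm2-/- mice on a BDF1B6 background complemented with embryonic stem cells carrying Pth-tdTomato. Gland formation depends on the transcription factor Gcm2, so the parathyroid cells are taken to derive from the stem cells, while the other cells of the gland may mix stem cell and host origin. Cell type and origin therefore cannot be told apart. For replicate 1, 3 mice (9 to 12 weeks old) were pooled, and for replicate 2, 5 mice (6 to 13 weeks old). The share of blood cells derived from the stem cells, labelled chimerism, was 50 to 70% in replicate 1 and 60 to 70% in replicate 2. Each pool held males and females. Both pools share these alleles and form 1 group, so the comparisons are between cell classes of the same glands.

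The respiratory chain passes electrons from NADH (complex I) and succinate (complex II) through complex III to oxygen at complex IV, and ATP synthase, also called complex V, uses the resulting proton gradient to make ATP. Complexes I, III, IV and ATP synthase each combine subunits encoded in the nucleus with a core encoded in mitochondrial DNA, whereas complex II is encoded wholly in the nucleus. Several complex IV subunits exist as paralogues that differ between tissues, such as the heart and skeletal muscle forms Cox6a2, Cox7a1 and Cox8b and the lung and hypoxia form Cox4i2. In human glands, parathyroid oxyphil cells are known for being packed with mitochondria.

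Replicate 1 comprised 1406 barcodes and 41517620 UMIs (unique molecular identifiers, each counting 1 captured RNA molecule), replicate 2 comprised 3518 barcodes and 88283761 UMIs, and 3 barcode sequences occurred in both libraries. After filtering, 1240 and 3313 barcodes remained. Parathyroid barcodes, defined by Pth making up at least 5% of their UMIs, numbered 660 and 2237, at median depths of 37729.5 and 30583 UMIs. Barcodes with Pth under 1% were clustered without the members, without other mitochondrial genes and without the pathway genes described below. The classes with at least 20 barcodes in each library were fibroblast-like (231 and 453), blood endothelial-like (106 and 270), macrophage-like (55 and 133) and T cell-like (36 and 51) barcodes, and an unnamed cluster led by Igkc, Cd209a and Sept3 (40 and 43). The median depth of these 5 classes lay between 7589 and 21691 UMIs. All 8 chief cell markers, among them Pth, Gcm2, Casr and Chga, had UMIs in the parathyroid class of both libraries, with summed levels of 229946 and 237217 CPM (UMIs per 1000000 UMIs of the class in its library), against 1950 to 3184 CPM in the other classes. Since Pth chose the barcodes, the sum was also taken over the 7 other markers, and was 87245 and 78845 CPM against 689 to 1428 CPM. Pth itself made up 0.118% to 0.198% of UMIs in the other classes, which is 0.826% to 1.25% of its level in parathyroid barcodes. The rule held Pth under 1% in these barcodes, so this residue is limited by the choice and is no independent measure of free RNA.

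Sequences are shown first for 4 members whose values recur below: Ndufa12, the complex I subunit with the highest fold change; Atp5g3, the most raised of the 3 genes for the c subunit of ATP synthase; Cox6a1, the widely used form of a complex IV subunit whose muscle form was found almost only in parathyroid barcodes; and Cox7a1, a muscle form of another. Each is the 250 bases before the RefSeq transcription start (GRCm38.p6), written 5′ to 3′ on the gene's strand. They lie at chr10:94198785-94199034 (plus strand), chr2:73911327-73911576 (minus), chr5:115348959-115349208 (minus) and chr7:30183921-30184170 (plus). Capitals mark matches to the motifs named after them.
Ndufa12: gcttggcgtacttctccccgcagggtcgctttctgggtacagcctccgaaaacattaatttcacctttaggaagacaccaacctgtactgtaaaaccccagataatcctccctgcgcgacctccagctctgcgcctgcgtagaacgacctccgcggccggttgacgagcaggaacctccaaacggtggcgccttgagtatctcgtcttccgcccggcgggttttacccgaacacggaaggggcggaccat
Atp5g3: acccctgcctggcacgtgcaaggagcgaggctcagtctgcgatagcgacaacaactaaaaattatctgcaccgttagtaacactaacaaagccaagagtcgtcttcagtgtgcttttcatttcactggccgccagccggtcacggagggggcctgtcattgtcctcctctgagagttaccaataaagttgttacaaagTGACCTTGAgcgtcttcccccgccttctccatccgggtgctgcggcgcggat
Cox6a1: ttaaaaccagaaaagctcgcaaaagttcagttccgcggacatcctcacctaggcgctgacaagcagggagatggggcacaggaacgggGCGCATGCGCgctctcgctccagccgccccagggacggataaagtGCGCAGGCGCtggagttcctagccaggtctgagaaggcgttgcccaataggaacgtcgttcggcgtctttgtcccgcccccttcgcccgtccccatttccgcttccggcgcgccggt
Cox7a1: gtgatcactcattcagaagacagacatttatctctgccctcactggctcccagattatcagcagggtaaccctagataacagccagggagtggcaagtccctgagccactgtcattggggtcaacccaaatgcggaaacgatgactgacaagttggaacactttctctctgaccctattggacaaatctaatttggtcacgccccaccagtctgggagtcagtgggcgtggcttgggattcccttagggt
The motifs were searched on both strands in the 250 bases before each start, for the 68 nuclear members with an entry. The motif of nuclear respiratory factor 1, NRF1 (GCGCA, any base, then GCGC), was found before 13 of them (19.1%), among them Cox6a1 with 2 matches, against 8.77% of the 10304 tested genes with an entry and 4.23% of all 27025 genes in the table. The motif TCAAGGTCA of the oestrogen-related receptors was found before 1 member, Atp5g3 (1.47%), against 0.262% of the tested genes and 0.422% of all genes. CCGGAAGT, an ETS and GABPA motif, stood before 3 members (4.41%), against 6.41% of the tested genes and 3.23% of all genes. AAGATGGCG of YY1 stood before 1 member (1.47%), against 1.36% and 0.710%. Ndufa12 and Cox7a1 held none of these letters in this window. The median GC content was 56.0% for the members and 59.6% for the tested genes.

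Parathyroid barcodes devoted a larger share of their UMIs to the nuclear members than any of the 5 other classes tested. The 86 genes made up 2.59% of UMIs in replicate 1 and 2.77% in replicate 2 of the parathyroid class. In the other classes the share was 1.05% and 1.28% in fibroblast-like barcodes, 1.28% and 1.57% in endothelial-like, 1.11% and 1.24% in macrophage-like, 1.56% and 1.55% in T cell-like barcodes and 1.38% and 1.61% in the Igkc/Cd209a cluster. The parathyroid values lay above all 10 others and were 2.03 and 1.91 times the mean of the 5 classes in the same library. Per barcode this came to 1190 and 886 UMIs of nuclear members in parathyroid barcodes, against 123 to 302 in the other classes.

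Among the 6 tested classes, the 13 mitochondrial members were also highest in parathyroid barcodes, by a smaller margin. They made up 3.60% and 3.39% of UMIs in parathyroid barcodes. T cell-like barcodes came next with 2.74% and 3.10%, and endothelial-like barcodes were lowest of the 6 with 1.68% and 1.72%. The parathyroid share was 1.68 and 1.52 times the mean of the other classes in its library. The limit on mitochondrial UMIs acts on these genes: at 15% it left out 5 and 21 parathyroid barcodes, but 71 of 99 and 113 of 144 barcodes with Pth from 1% to 5%. Without any limit, a further class of 21 and 24 barcodes, led by Erbb4, Cdh20 and Sycp2l, entered the other side. It had Pth at 7829 CPM, UMIs of all 8 chief cell markers and Esrrg among its leading genes, and its relation to the parathyroid class was not tested. The parathyroid sum of mitochondrial members was then 0.704 times the mean of the others. With that class left out, an alternative added after the data were seen, all 13 were again called higher.

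**Figure D1:**
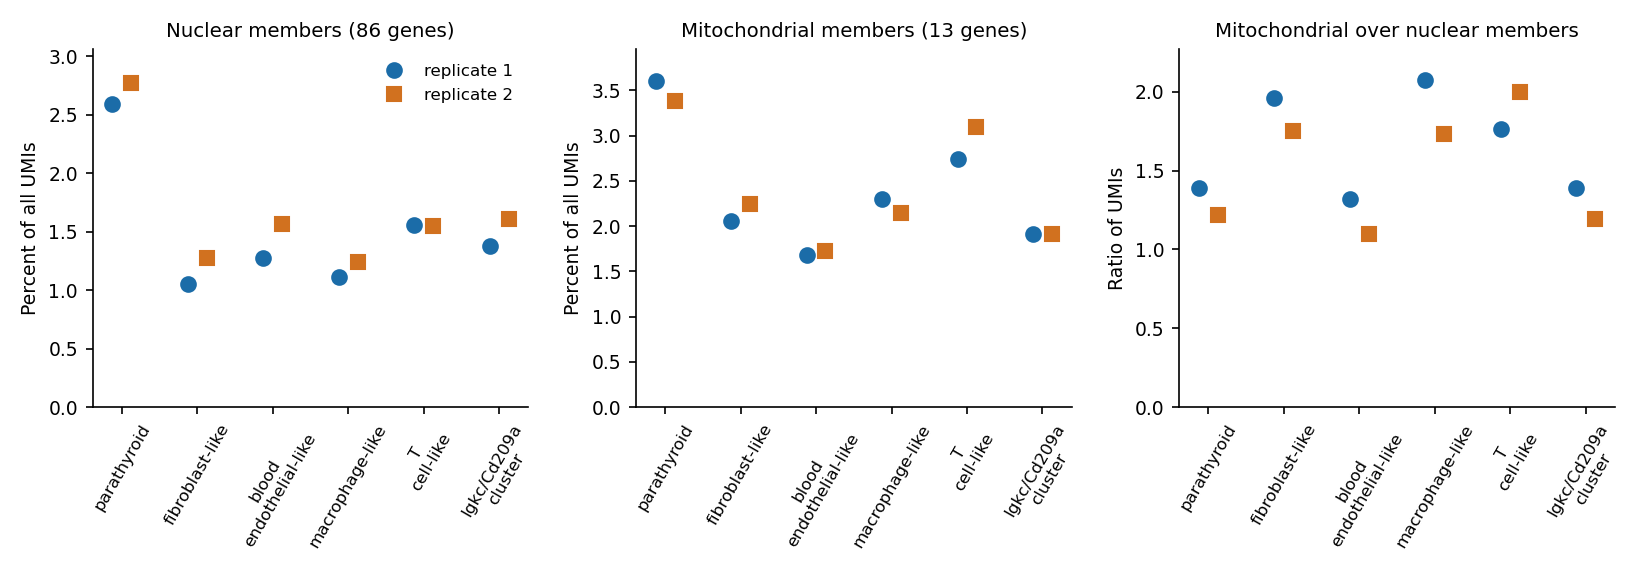
Share of all UMIs taken by the nuclear members (left) and the mitochondrial members (middle), and the ratio of their UMIs (right), per class; circles are replicate 1 and squares replicate 2. Nuclear members take 2.59% and 2.77% in parathyroid barcodes, above every other class drawn, while the ratio of 1.39 and 1.22 lies within the range of the others.

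Taken over all members, the balance between the genomes in parathyroid barcodes lay within that of the other classes. Mitochondrial members had 1.39 and 1.22 times as many UMIs as nuclear members in parathyroid barcodes, against 1.10 to 2.07 times in the other classes. Endothelial-like barcodes (1.32 and 1.10) and the Igkc/Cd209a cluster (1.39 and 1.19) had similar ratios, and fibroblast-like (1.96 and 1.75), macrophage-like (2.07 and 1.73) and T cell-like barcodes (1.76 and 2.00) higher ones. Within ATP synthase the ratio was 0.647 and 0.577 in parathyroid barcodes against 0.621 to 1.23 elsewhere, and within complex III it was 1.86 and 1.59 against 0.982 to 2.07. These ratios compare 3′ tags without a correction for transcript length, and 35 of the 96 tested members overlap a gene on the opposite strand, whose reads could be misassigned if the counting ignored strand.

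By complex, the nuclear sums in parathyroid barcodes were between 1.73 and 2.01 times the mean of the other classes. Complex I stood at 2.01 ± 0.10 times (mean ± SD of the 2 libraries), ATP synthase at 2.00 ± 0.10, complex IV at 1.95 ± 0.05, complex III at 1.90 ± 0.06 and complex II at 1.73 ± 0.15. The spread between libraries is as large as most gaps between complexes. The mitochondrial sums varied more between complexes: 2.13 ± 0.19 times for complex III (mt-Cytb alone), 1.83 ± 0.15 for complex I, 1.50 ± 0.07 for complex IV and 1.29 ± 0.14 for ATP synthase. Over T cell-like barcodes alone, the ratio in replicates 1 and 2 was 1.19 and 0.999 for complex IV and 1.03 and 0.813 for ATP synthase. Over each of the other tested classes both ratios were above 1 in both libraries.

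Gene by gene, UMI sums per class and library were tested with edgeR's quasi-likelihood test with library as a block, parathyroid over the unweighted mean of the 5 other classes. At an adjusted p of 0.05, 79 of the 83 tested nuclear members were called higher and 0 lower, where 36.7% of all 13302 genes tested were called higher and 19.8% lower. Of the 79, Cox6a2 and Cox7a1 passed the low count filter only through the parathyroid class, and the same 79 were called without that filter. The median log2 fold change of the nuclear members was 1.06, and that of all genes tested 0.19. All 13 mitochondrial members were called higher, at a median of 0.80. Both parathyroid libraries lay above all 10 values of the other classes in CPM for 64 of the 83 nuclear and 7 of the 13 mitochondrial members, against 15.1% of all genes. They lay below all 10 for 0 members, against 8.29% of all genes. DESeq2's test called 12 mitochondrial members higher, without mt-Nd6, and its split of calls over all genes was 48.9% higher, against 65.0% in edgeR. The 4 tested nuclear members without a call were Cox7a2l, Cox6b2, Cox4i2 and Ndufa4l2, and Cox7b2, Cox8b and Cox8c were too rare to test.

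**Figure D2:**
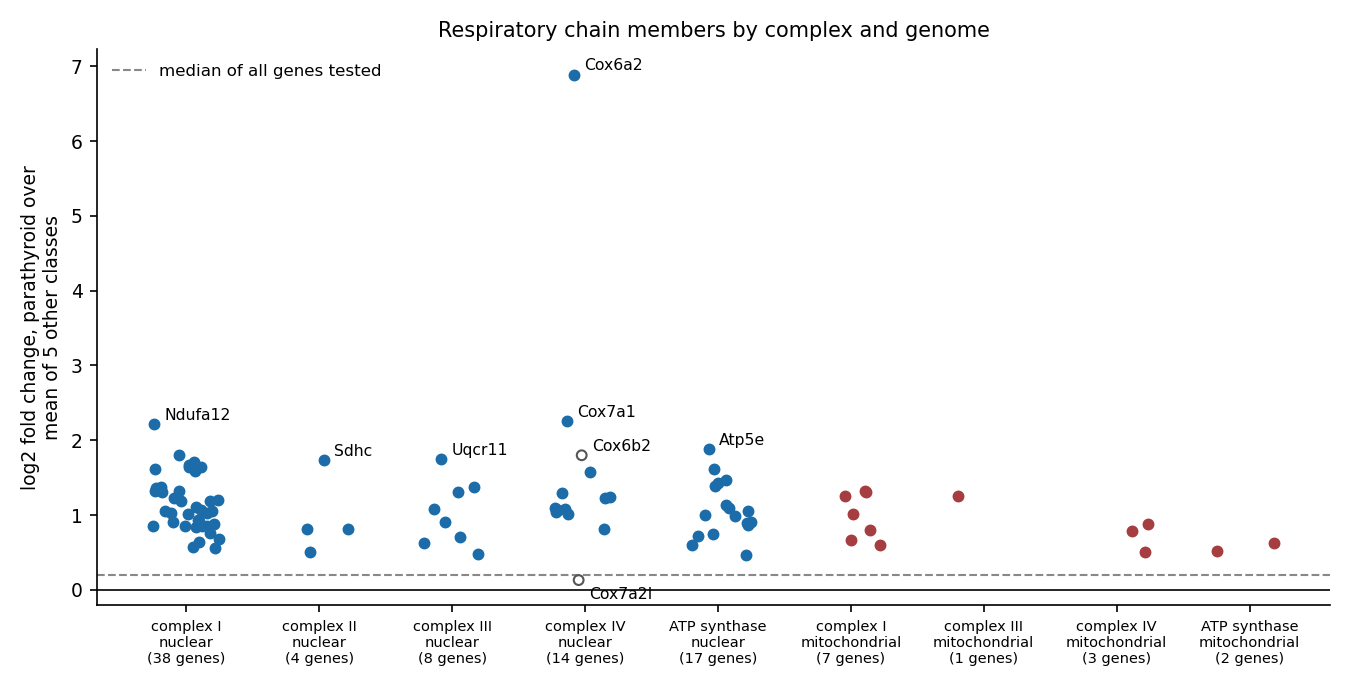
Log2 fold change of each tested member, parathyroid over the mean of 5 other classes, by complex and genome; filled points are called at an adjusted p of 0.05 and open points are not. Cox4i2 and Ndufa4l2 are left out because the fit gave them no usable error; of the others drawn, Cox7a2l alone lies below the dashed median of all genes (0.19), and Cox6a2 and Cox6b2 are drawn at fitted values that depend on a class with 0 UMIs.

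Complex I members were higher in parathyroid barcodes in 38 of 39 cases. Ndufa12, an accessory subunit of the NADH-oxidising arm, had 327 and 365 CPM in parathyroid barcodes and 54.5 to 127 CPM in the other classes. The groups did not overlap, and the log2 fold change was 2.22 (SE 0.12, adjusted p = 1.26e-08). It was called higher over each class on its own, by 1.92 over endothelial-like to 2.53 over fibroblast-like barcodes. Ndufc1, Ndufb9 and Ndufa5, accessory subunits of the membrane and peripheral arms, followed at log2 fold changes of 1.80, 1.70 and 1.67. Ndufa4 had the most UMIs of the complex I names, with 646 and 717 CPM in parathyroid barcodes against 85.8 to 467 CPM elsewhere, and was higher by 1.64 (SE 0.17, adjusted p = 2.43e-06). The smallest called changes were those of Ndufa6 (0.56), Ndufa3 (0.57) and Ndufs4 (0.64). Ndufb9 shares its locus with an overlapping entry on the same strand, so its UMIs are less certain. In all, 19 of the 96 tested members overlap a gene on the same strand, among them Cox4i1 of complex IV, along 5986 bases.

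Complex II, which also oxidises succinate in the citric acid cycle, had all 4 subunits called higher, by differing amounts. Sdhc, a membrane anchor subunit, had 113 and 129 CPM in parathyroid barcodes and 23.1 to 63.6 CPM in the others, without overlap, and rose by 1.73 (SE 0.13, adjusted p = 1.72e-07). Sdhd, the other anchor, rose by 0.81 (SE 0.13) and Sdha, the flavoprotein, by 0.81 (SE 0.14). Sdhb, the iron-sulphur subunit, rose least, by 0.51 (SE 0.13, adjusted p = 3.89e-03), with 99.5 and 107 CPM against 56.7 to 94.7 CPM. Sdhb did not pass over macrophage-like barcodes or over the Igkc/Cd209a cluster.

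All 8 complex III members were called higher. Uqcr11, a small accessory subunit, had 486 and 528 CPM in parathyroid barcodes against 107 to 254 CPM in the others and rose by 1.75 (SE 0.12, adjusted p = 7.83e-08). Uqcrq (1.38), Uqcr10 (1.30) and Uqcrc2 (1.09) followed, and Uqcrb (0.90) and the Rieske iron-sulphur protein Uqcrfs1 (0.70) rose less. Uqcrh, the complex III member with the most UMIs, had 528 and 581 CPM against 308 to 460 CPM and rose by 0.62. Uqcrc1, a core protein, rose least (0.48, SE 0.12, adjusted p = 5.14e-03): its 74.3 and 74.5 CPM overlapped the 45.0 to 84.0 CPM of the other classes.

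ATP synthase had all 17 nuclear members called higher. Atp5e, the epsilon subunit of the central stalk, had 1761 and 1719 CPM in parathyroid barcodes, the highest of any nuclear member, against 309 to 753 CPM in the others, without overlap. Its log2 fold change was 1.89 (SE 0.11, adjusted p = 2.07e-08). Atp5k (1.46) and Atp5j (1.42), subunits of the membrane part and the stalk that joins it, were also among the most raised. Atp5f1 (0.60), Atp5c1 (0.72) and Atp5j2 (0.75) rose less.

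The c subunit of the ATP synthase rotor is made from 3 genes whose mature proteins are the same, and their shares differed. Atp5g3 had 331 and 352 CPM in parathyroid barcodes against 83.6 to 180 CPM elsewhere and rose by 1.61 (SE 0.13, adjusted p = 2.55e-07). Atp5g1 rose by 1.13 (SE 0.14, adjusted p = 1.46e-05), and Atp5g2 by 0.47 (SE 0.13, adjusted p = 6.24e-03). The 3 genes gave similar numbers of UMIs in parathyroid barcodes: Atp5g3 took 32.7% and 31.9% of the c subunit UMIs there, against 14.8% to 25.7% in the other classes, and Atp5g2 took 36.7% and 36.1%, against 39.1% to 58.4%. Both shares lay outside the range of the 5 other tested classes. In the small pericyte or smooth muscle-like class described with the smaller classes, Atp5g3 took 38.5% and 33.5% of 117 and 191 c subunit UMIs, more than in parathyroid barcodes.

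Complex IV held the members that differed most. Cox8a had the most UMIs, with 1267 and 1388 CPM in parathyroid barcodes against 398 to 594 CPM in the others, and rose by 1.57 (SE 0.11, adjusted p = 7.73e-08). The untested pericyte or smooth muscle-like class had 1400 and 1292 CPM of Cox8a, about the parathyroid level. Cox6b1 (1.29), Cox7a2 (1.09), Cox7b (1.08), Cox6a1 (1.04), Cox5a (1.02) and Cox4i1 (0.82), which form its ordinary nuclear shell, were all called higher. Cox7a2l, which despite its name joins complexes III and IV into supercomplexes, was the exception among abundant members. It had 262 and 299 CPM in parathyroid barcodes and 219 to 340 CPM in the others, which overlap (log2 fold change 0.13, SE 0.12, adjusted p = 0.413).

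Cox6a2, the heart and skeletal muscle form of subunit 6a, was found almost only in parathyroid barcodes among the 6 classes. The gene lies on the minus strand at chr7:128205435-128206387 (GRCm38). It had 766 UMIs in replicate 1 (25.3 CPM, 95% Poisson interval 23.5 to 27.1) and 2729 in replicate 2 (38.2 CPM, 36.8 to 39.6). The 5 other classes together held 2 and 9 UMIs (0.243 and 0.619 CPM), so that the parathyroid level was 104 and 61.7 times higher. These intervals cover counting error only. The residue outside the parathyroid class was 0.962% and 1.62% of the parathyroid level. For Pth it was 0.958% and 0.960%, values limited by the rule that chose the barcodes. The part of free RNA in the Cox6a2 residue was not tested.

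Set against the mean of all 5 classes, Cox6a2 had a fitted log2 fold change of 6.89 (adjusted p = 1.45e-08), a value that depends on how the fit treats the 0 UMIs of T cell-like barcodes. Its entry into the test rested on the parathyroid class alone, the class where it is high. Cox6a2 was called higher over each class: the log2 fold change was 7.30 over fibroblast-like, 5.43 over endothelial-like and 4.69 over macrophage-like barcodes and 5.63 over the Igkc/Cd209a cluster, with adjusted p between 5.34e-08 and 3.14e-05 (edgeR's quasi-likelihood test). T cell-like barcodes held 0 UMIs in both libraries, which makes the parathyroid level at least 3.64-fold and 5.78-fold higher, taking 3 UMIs per library as the floor. Cox6a2 supplied 6.10% and 8.27% of the UMIs of the Cox6a pair in parathyroid barcodes, and Cox6a1 the rest. At least 1 Cox6a2 UMI was found in 54.4% and 59.2% of parathyroid barcodes, against 0% (0 of 231, an exact binomial bound of 1.58% on barcodes with a UMI in this library, not on expression) and 0.662% of fibroblast-like barcodes. With every barcode thinned to 5000 UMIs, which left out 16 and 34 parathyroid barcodes, the shares were 10.1% and 16.3%, against 0% and 0.226%. The parathyroid barcodes in the top 10% by Cox6a2 carried 40.9% and 38.2% of its UMIs, and no barcode had more than 8 and 15.

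Cox6a2 overlaps Itgad, an integrin gene on the opposite strand, along its whole length, and Itgad had 7 and 27 UMIs in parathyroid barcodes. The 8 skeletal muscle markers summed to 6.11 and 8.56 CPM in parathyroid barcodes against 6.07 to 119 CPM in the other classes, with 2 and 0 of the 8 without a UMI. The 6 cardiac markers summed to 2.51 and 1.06 CPM against 0 to 2.67 CPM, and 2 and 3 of the 6 had no UMI. Both sums lay below the level of Cox6a2 itself, and the part of muscle RNA in its level was not tested.

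The other isoforms followed separate patterns. Cox7a1, the muscle form of subunit 7a, had 6.77 and 6.35 CPM in parathyroid barcodes (205 and 454 UMIs), against 0 to 4.63 CPM in the others, and supplied 0.941% and 0.794% of the UMIs of its family. It was called higher over the mean of the others (2.25, SE 0.41, adjusted p = 3.84e-04), but not over macrophage-like (adjusted p = 0.146) or T cell-like barcodes (adjusted p = 0.238). Cox7a1 passed the low count filter only through the parathyroid class, where it is high. Cox8b, the muscle form of subunit 8, had 0 UMIs in parathyroid barcodes of both libraries, 13 and 25 in fibroblast-like and 2 and 0 in endothelial-like barcodes. Cox6b2, the testis form of subunit 6b, had 3.83 and 5.30 CPM in parathyroid barcodes. It was higher in the Igkc/Cd209a cluster (log2 fold change -2.03 for parathyroid over it, adjusted p = 1.43e-03), and lower in endothelial-like barcodes, where it had 1 UMI in all. Cox6b2 was also called higher over T cell-like barcodes, which held 0 UMIs in both libraries. The floor of that class was 6.94 CPM in replicate 1 and 6.60 CPM in replicate 2. Both lie above the parathyroid values, so a lower level in T cell-like barcodes cannot be shown at this depth. Cox6b2 was not called over fibroblast-like or macrophage-like barcodes. Cox7b2 had 4 and 1 UMIs in parathyroid barcodes, and Cox8c had none in any class.

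Cox4i2 and Ndufa4l2, forms induced by low oxygen in other tissues, were almost absent from parathyroid barcodes. Cox4i2 had 6 and 12 UMIs in parathyroid barcodes (0.198 and 0.168 CPM) and was lower there than in fibroblast-like (-4.03, adjusted p = 1.07e-04), endothelial-like (-5.04, adjusted p = 4.36e-05) and macrophage-like barcodes (-3.09, adjusted p = 0.0176). Cox4i2 passed the low count filter only through the endothelial-like class, where it was highest of the 6 tested classes (6.17 and 8.48 CPM). Macrophage-like barcodes held 1 and 4 Cox4i2 UMIs (1.05 and 1.78 CPM), the first under the floor of 3 UMIs (3.14 CPM). Ndufa4l2 had 1 and 24 UMIs (0.033 and 0.336 CPM), 10 of them in a single barcode, and was lower than in fibroblast-like (-6.89, adjusted p = 2.23e-06) and endothelial-like barcodes (-4.83, adjusted p = 4.13e-04). The endothelial-like difference rests on replicate 2, since in replicate 1 that class was under its floor of 3 UMIs (2.64 CPM). Both genes had their highest levels in a small pericyte or smooth muscle-like class of 10 and 22 barcodes, which was too small to enter the test. There Cox4i2 stood at 346 and 442 CPM and took 35.7% and 43.1% of the UMIs of the Cox4i pair, against 0.0254% and 0.0192% in parathyroid barcodes. Ndufa4l2 stood at 685 and 836 CPM there and took 69.5% and 82.2% of the UMIs it shares with Ndufa4.

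**Figure D3:**
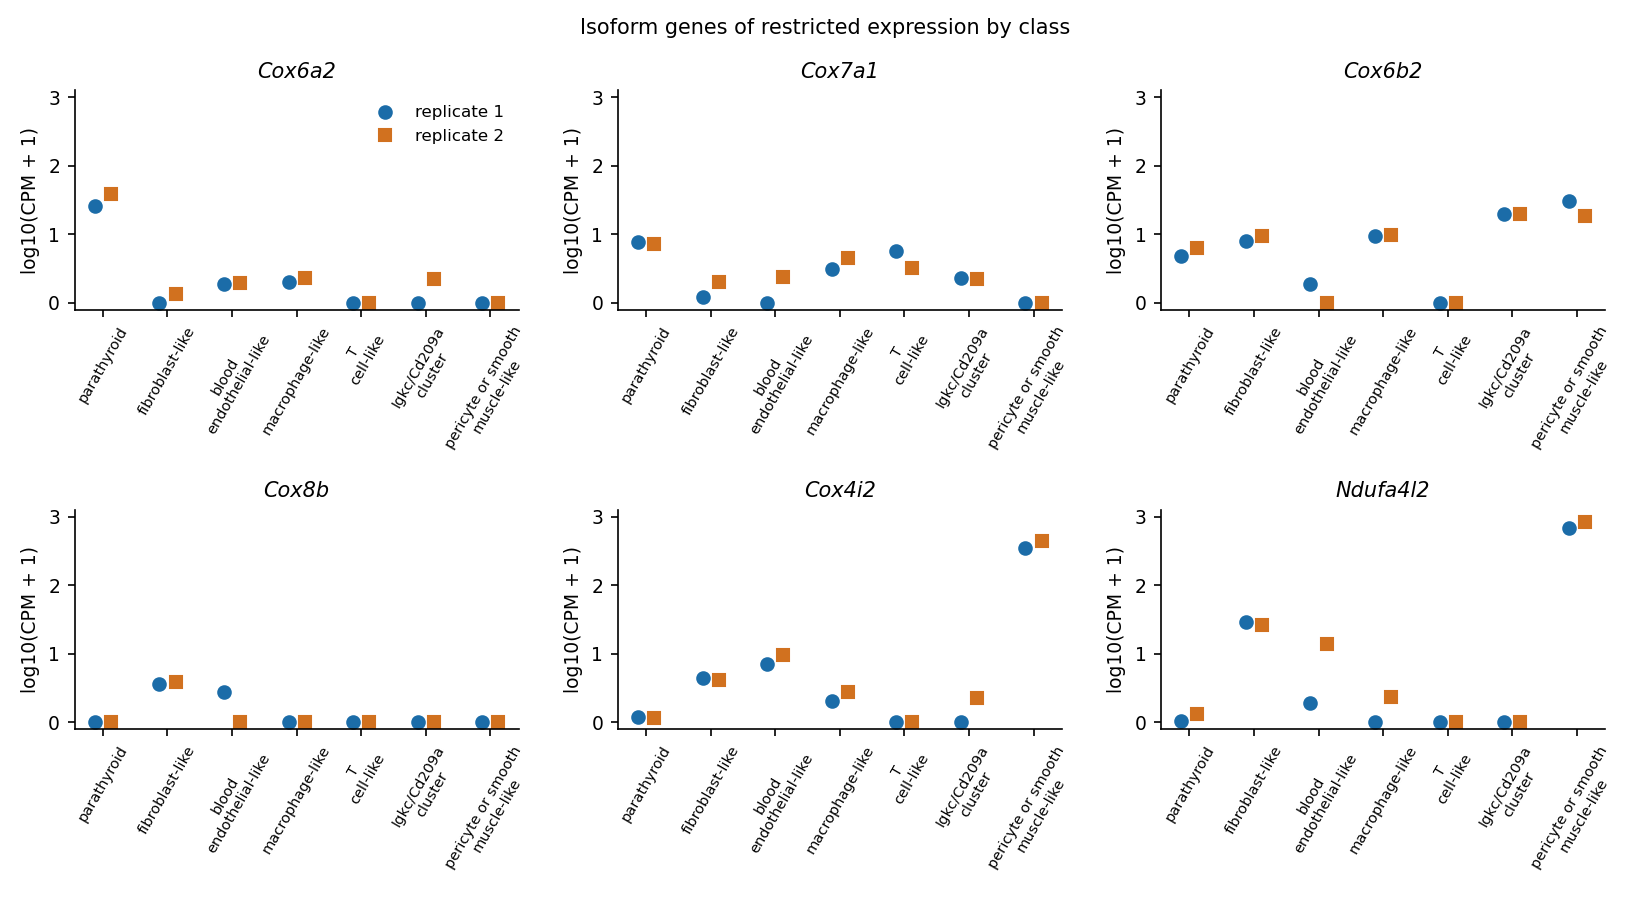
Levels of 6 isoform genes as log10(CPM + 1) in the 6 classes tested and in the small pericyte or smooth muscle-like class; circles are replicate 1 and squares replicate 2. Cox6a2 is highest in parathyroid barcodes (25.3 and 38.2 CPM), Cox8b is at 0 there, and Cox4i2 and Ndufa4l2 are highest in the pericyte or smooth muscle-like class.

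Among mitochondrial members, mt-Nd5, mt-Nd4l, mt-Nd4, mt-Cytb and mt-Nd2 rose most. mt-Cytb, the haem-bearing core of complex III, had 4400 and 4101 CPM in parathyroid barcodes against 1327 to 2736 CPM in the others, without overlap (log2 fold change 1.25, SE 0.09, adjusted p = 8.18e-08). mt-Nd5 (1.32, SE 0.11), mt-Nd4l (1.31, SE 0.13), mt-Nd4 (1.26, SE 0.09) and mt-Nd2 (1.02, SE 0.09), all membrane subunits of complex I, rose in a similar range and also without overlap. mt-Nd3 (0.80, SE 0.12) and mt-Nd1 (0.67, SE 0.10) rose less. mt-Nd6, the only member read from the other strand of the mitochondrial genome, was scarce at 70.9 and 51.1 CPM against 16.0 to 89.9 CPM, and its call (0.60, SE 0.17, adjusted p = 9.33e-03) was lost in DESeq2.

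The mitochondrial genes of complex IV and ATP synthase rose by 0.50 to 0.88, a range that also held mt-Nd1, mt-Nd3 and mt-Nd6. mt-Co1, the catalytic subunit, had the most UMIs of all members, with 6550 and 5722 CPM in parathyroid barcodes against 3044 to 5443 CPM, and rose by 0.78 (SE 0.08, adjusted p = 3.28e-06). mt-Co3 rose by 0.88 (SE 0.08). mt-Co2, which receives electrons from cytochrome c, rose by 0.50 (SE 0.09, adjusted p = 4.47e-04), and its 3869 and 3851 CPM overlapped the 2268 to 4376 CPM of the others. mt-Atp6, the proton channel subunit, rose by 0.52 (SE 0.09) and mt-Atp8, a short membrane subunit, by 0.62 (SE 0.13); both overlapped the other classes.

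mt-Atp8 and mt-Atp6 share bases, so 3′ tags may not separate them. Their shared stretch is 43 bases long on the plus strand, and it is shown in capitals with 20 bases on each side, as chrM:7907-7989 (GRCm38, GENCODE vM21).
mt-Atp8/mt-Atp6: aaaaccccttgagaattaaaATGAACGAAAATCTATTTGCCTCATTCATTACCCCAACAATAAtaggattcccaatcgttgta
mt-Nd4l and mt-Nd4 likewise share 7 bases.

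Set against each class separately, both genomes were mostly called higher, and the sizes depended on the class. Over fibroblast-like barcodes, 79 of 83 nuclear members were called higher (29.8% of all genes) and 2 lower (29.5% of all genes). Over endothelial-like barcodes 76 were higher (28.7%) and 2 lower (25.5%), and over macrophage-like barcodes 74 were higher (30.4%) and 1 lower (29.0%). Over T cell-like barcodes 73 were higher (28.3%) and 0 lower (17.7%), and over the Igkc/Cd209a cluster 65 were higher (31.2%) and 1 lower (24.1%). The 6 lower calls were Cox4i2 over 3 classes, Ndufa4l2 over 2 and Cox6b2 over 1. Of the 13 mitochondrial members, 12, 12, 11, 10 and 13 were called higher in the same order of classes and 0 lower.

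The median nuclear log2 fold change was 1.20 over fibroblast-like, 1.16 over T cell-like, 1.10 over endothelial-like and 1.05 over macrophage-like barcodes and 0.80 over the Igkc/Cd209a cluster. The median mitochondrial log2 fold change was 1.21 over endothelial-like barcodes, 1.00 over the Igkc/Cd209a cluster, 0.78 over fibroblast-like, 0.64 over T cell-like and 0.56 over macrophage-like barcodes. These comparisons share the parathyroid sums. mt-Co2 was not called over macrophage-like (0.18, adjusted p = 0.239) or T cell-like barcodes (0.31, adjusted p = 0.0569), and mt-Atp6 not over T cell-like barcodes (0.23, adjusted p = 0.126). mt-Nd4, mt-Nd4l, mt-Nd5 and mt-Cytb were called over all 5 classes, by 0.68 to 1.73, and so were mt-Nd1, mt-Nd2, mt-Nd3, mt-Co1 and mt-Co3. Without the library block, 7 mitochondrial members were called over macrophage-like barcodes in place of 11.

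**Figure D4:**
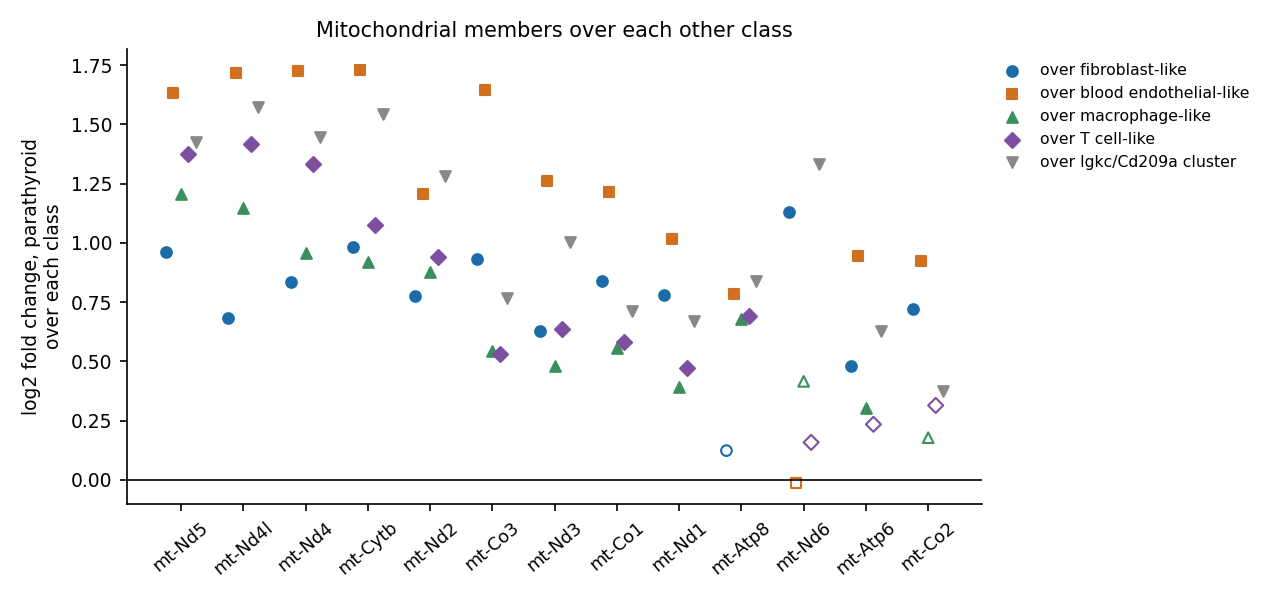
Log2 fold change of the 13 mitochondrial members, parathyroid over each of 5 other classes, ordered by the change over their mean; filled symbols are called at an adjusted p of 0.05 and open ones are not. Changes over endothelial-like barcodes reach 1.73, and those of mt-Co2 and mt-Atp6 over macrophage-like and T cell-like barcodes are the smallest but for mt-Nd6 and mt-Atp8.

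Among the smaller classes, given as values only, the pericyte or smooth muscle-like barcodes came closest to the parathyroid barcodes in nuclear members. Their nuclear members took 2.35% and 2.26% of UMIs and their mitochondrial members 5.26% and 3.61%. Of the 83 tested nuclear members, 42 were higher in parathyroid barcodes than in this class in both libraries and 15 lower, and of the 13 mitochondrial members 1 was higher and 9 lower. Ndufa12 and Atp5e were among those higher in parathyroid barcodes and Sdhc among those lower. The class rests on 10 and 22 barcodes, and these differences were not tested. Neutrophil-like barcodes (21 and 16) had the lowest mitochondrial shares of any class, 0.278% and 0.218%, beside nuclear shares of 0.644% and 0.841%. An unnamed cluster led by Erbb4, Zfp804b and Syn2 (6 and 8 barcodes) had the lowest nuclear shares, 0.408% and 0.340%, and mitochondrial shares of 10.8% and 8.42%. The 14 and 22 barcodes with Pth from 1% to 5% that passed the filters had a nuclear share of 1.21% and 1.36% and a mitochondrial share of 6.64% and 7.22%, at median depths of 9329.5 and 6142 UMIs. Their ratio of mitochondrial to nuclear members was 5.49 and 5.29, above every tested class.

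Within the parathyroid barcodes, the nuclear members were higher where Pth took a larger share. Per 1000000 UMIs other than Pth, nuclear members had 24697, 29063, 33010 and 33987 UMIs in barcodes with Pth shares of 5 to 10%, 10 to 15%, 15 to 20% and 20% or more in replicate 1 (34, 386, 215 and 25 barcodes). In replicate 2 they had 25666, 30607, 34388 and 37277 (55, 794, 1216 and 172 barcodes). The order was the same in each pool. The mitochondrial members had 50609, 40492, 44121 and 41771 in replicate 1 and 41485, 38380, 41247 and 42055 in replicate 2, with no common order.

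Gene by gene, the bin of 20% or more was set against that of 10 to 15%, a pair chosen after the values were seen. Of the 79 nuclear members with at least 20 UMIs per 1000000 in both pools, 66 were higher in both pools and 1 lower, against 24.7% and 48.4% of 6381 genes. The median log2 ratio was 0.23 and 0.28 for these members and -0.11 and -0.12 for all genes. Of the 13 mitochondrial members, 8 were higher and 2 lower in both pools. Chga, a secretory granule protein, had 96197 UMIs per 1000000 other than Pth in the lowest of these bins and 124808 in the highest in replicate 1, and 70666 and 101356 in replicate 2. The median depth was lowest in the bin of 5 to 10%, at 25645 UMIs in replicate 1 and 26904 in replicate 2. Over the 3 upper bins it fell, at 38669.5, 37070 and 28873 UMIs in replicate 1 and 31104, 30575.5 and 28625 in replicate 2. The part of depth in the order of the nuclear members was not tested.

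**Figure D5:**
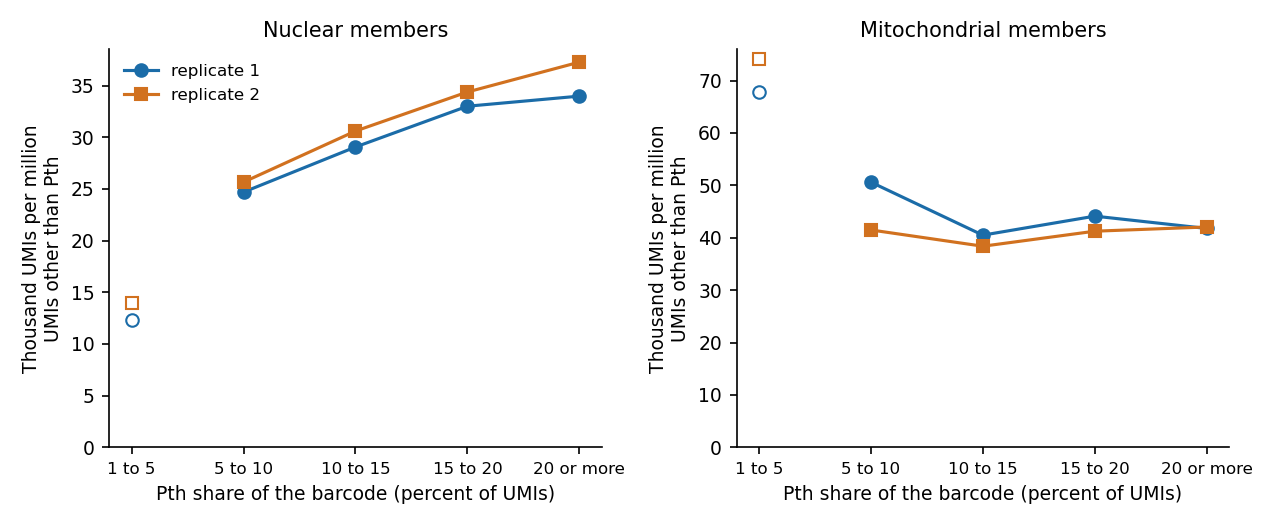
UMIs of nuclear (left) and mitochondrial (right) members per 1000000 UMIs other than Pth, by the Pth share of the barcode; circles are replicate 1, squares replicate 2, and open symbols are the few barcodes with Pth from 1% to 5%. Nuclear members climb to 33987 and 37277 in the bin of 20% or more in both pools, and mitochondrial members do not.

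Genes that build and feed the chain were mostly higher as well. These lists are read beside the 36.7% and 19.8% of all genes called higher and lower. Of 52 tested assembly factors, 40 were called higher and 0 lower (median log2 fold change 0.76), led by Cox20, which helps to mature the complex IV subunit 2 (1.38, adjusted p = 4.95e-07), and Ndufaf2 of complex I (1.41, adjusted p = 1.06e-06), while Ttc19 was not called (0.23, adjusted p = 0.154). Of 27 electron, substrate and nucleotide carriers, 20 were higher and 3 lower (median 0.88). Atpif1, which blocks reverse action of ATP synthase, had 489 and 538 CPM in parathyroid barcodes against 62.5 to 293 CPM in the tested classes (1.90, adjusted p = 2.30e-08) and 519 and 416 CPM in the untested pericyte or smooth muscle-like class, and Etfb of the electron transfer flavoprotein rose by 1.91. Gpd2 (-1.66) and Coq10b (-1.75) were lower, and the carrier Slc25a5 was not called (0.38, adjusted p = 0.0555).

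Of 18 genes of pyruvate dehydrogenase and the citric acid cycle, 16 were called higher and 0 lower (median 1.00), among them Suclg1 (1.38), a subunit of succinyl-CoA ligase. Citrate synthase, Cs, was not called (0.07, adjusted p = 0.760). Mitochondrial ribosomal proteins were higher in 68 of 77 cases and lower in 1, Mrpl33 (median 0.74), with Mrpl51 (1.48) and Mrps12 (1.33) of smallest p, and Mrpl32 was not called (0.12). Mitochondrial translation factors were higher in 6 of 11 and lower in 0 (median 0.83; Tsfm 1.36, Gfm1 0.93), and Mtif2 was not called (0.32). Genes of mitochondrial transcription, RNA processing and DNA maintenance were higher in 14 of 23 and lower in 3 (median 0.80; Hsd17b10 1.66, Ssbp1 1.03, Supv3l1 -0.83, Polg2 -0.66), and Pnpt1 was not called (0.25). Of the 5 tested genes listed for supercomplexes and stress, which include 3 members, Higd1a (0.84) and Higd2a (0.51) were called higher and 0 lower (median 0.13).

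Genes whose names start with Rpl or Rps, mostly cytosolic ribosomal proteins, went the other way: 6 of 94 were higher and 81 lower (median -0.76). Rps19 had 601 and 624 CPM in parathyroid barcodes against 1453 to 2926 CPM (-1.66, adjusted p = 5.24e-08), Rps24 fell by 1.51 on the log2 scale, and Rpl41 was not called (0.13). The genes of this name that rose included Rps6ka6, a kinase, and Rps19bp1, a binding protein, which are not ribosomal proteins. Rps6ka6 passed the low count filter only through the parathyroid class.

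Regulators of respiratory gene transcription divided, with 5 of 15 called higher and 8 lower (median -0.50). Esrrg, an oestrogen-related nuclear receptor, had 1100 and 950 CPM in parathyroid barcodes against 0 to 41.2 CPM in the others (log2 fold change 7.24, adjusted p = 1.74e-09). Its coactivators Ppargc1a, with 31.1 and 28.8 CPM against 0 to 2.42 CPM, and Ppargc1b, with 49.7 and 38.8 CPM against 0.471 to 16.2 CPM (3.23, adjusted p = 4.74e-08), were called higher, and so were Ppara and Esrra (0.85). In the untested pericyte or smooth muscle-like class Ppargc1b stood at 75.3 and 53.1 CPM, above the parathyroid values, while Esrrg had 0 and 8.85 CPM. Ppargc1a and Ppara had no UMI in 2 and 3 of the other classes, so their fitted changes are not sizes. Without the parathyroid class neither would have passed the low count filter. Nfe2l2 (-2.34), Pparg (-1.95), Gabpb1 (-1.27), Gabpb2 (-0.75), Sp1 (-0.69), Pprc1 (-0.58), Nrf1 (-0.50) and Gabpa (-0.50) were lower, and Yy1 and Hif1a were not called.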

How the data were processed

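The authors deposited unnormalised UMI counts, made with Cell Ranger 7.0.0 on mm10, per the submitters' processing notes; how barcodes were called and whether strand was used are not given in the sources used here. Per the labels' protocols, glands were minced and digested with enzymes, single cells were sorted with discrimination of doublets, and libraries were made with a 10x 3′ kit. Members and gene lists were chosen with earlier results of these data known.

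Barcodes with under 500 genes, at least 15% mitochondrial or 5% haemoglobin UMIs, or a Scrublet doublet call (23 and 6 barcodes) were left out, 166 and 205 in all; cells of 2 types may remain. Others were clustered with scanpy 1.11.5 (2000 variable genes, 30 components, 15 neighbours, Leiden resolution 1) and named from markers. Counts were summed per library and class and tested with edgeR 4.0.16 (TMM, filterByExpr, quasi-likelihood, library block, 5 residual degrees of freedom, Benjamini-Hochberg at 0.05); the library pairs classes because they come from the same mice. The fit was first tested on simulated counts. DESeq2 1.42.0 was an alternative. The pools are separate mice, and the block takes up the shift that all classes share between them. The p-values measure the remaining spread of the classes between these 2 libraries, estimated over all 6 classes together. A fold change is a contrast of mean logs and can differ from a ratio of mean CPM.

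Named genes were all mitochondrial members, paralogue families and Sdha to Sdhd, and in each other complex the 4 highest and 4 lowest fold changes and the member of most UMIs. Each pathway list gave its 2 called genes of smallest p in each direction and the uncalled gene of most UMIs, except for items that are not reported here. The remaining regulators and Chga were added after their values were seen. Coa1, Fastkd4, Pc and Fam36a were not matched.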

Additional observations from a re-analysis of the deposited data

How the results depend on the processing

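The 79 nuclear members called higher were called again under 11 of the 12 planned settings; without a limit on mitochondrial UMIs Cox7a1 was lost. The number of nuclear members called lower was 2 with DESeq2's test and 3 with all other barcodes as 1 class. The median log2 fold change of nuclear members was 0.92 with DESeq2's test, 0.92 with DESeq2 size factors, 1.19 without a low count filter, 1.43 without a mitochondrial limit and 1.25 with 1 other class; that of mitochondrial members was 0.66, 0.66, 0.94, 0.38 and 0.96 in the same order, and that of all genes -0.012, 0.065, 0.33, 0.34 and 0.013, with 0.16 at Leiden resolution 2 and 0.16 with predicted doublets kept. Leaving out each replicate gave all-gene medians of 0.19 to 0.24, with no test, since each class then has 1 sample. Without a mitochondrial limit, 8 mitochondrial members were called higher (mt-Nd1, mt-Nd6, mt-Co2, mt-Atp6 and mt-Atp8 were lost), their summed level was 0.704 times the other classes, the nuclear sum 2.24 times, the other classes' ratio of mitochondrial to nuclear members 9.39, and 1318 genes were called lower. Genes called lower numbered 4336 with DESeq2's test and 6269 with 1 other class. Leaving Pth, Chga and the reporters out of the totals gave summed ratios of 2.60 (nuclear) and 2.11 (mitochondrial), and 1 other class gave 2.13 (nuclear). Without the replicate block, 7 mitochondrial members were called higher over macrophage-like barcodes and 12 over the mean of the others, without mt-Atp8. Pnpt1, not called in the report, was -0.51 with 1 other class. The causes of these changes were not tested. The pools are only 2, with 5 residual degrees of freedom, and the smallest tested class held 36 barcodes in replicate 1.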

Other observations

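The pools differed in the mitochondrial members within parathyroid barcodes. Of the 13, 10 had a higher CPM in replicate 1, while 72 of 83 nuclear members had a higher CPM in replicate 2. Of all 13301 genes tested, 48.4% were higher in replicate 1 and 51.2% in replicate 2. The nuclear shift was not particular to parathyroid barcodes. The summed nuclear share was also higher in replicate 2 in fibroblast-like, endothelial-like and macrophage-like barcodes and in the Igkc/Cd209a cluster. In T cell-like barcodes it was 1.56% and 1.55%. mt-Nd3, mt-Nd4l, mt-Nd5 and mt-Atp8 were higher in replicate 1 in 6 of 6 classes, and mt-Nd2 and mt-Nd4 in 0 of 6. These are values of 2 pools, with no test.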
